A study of Mus musculus with 6 samples.

Results

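The response of L929 fibroblasts to interferon-beta (IFN-β) was set against that of NIH3T3 fibroblasts, gene by gene. For each gene the log2 level on the unstimulated array of a line was subtracted from the level on its IFN-β array, which gives the response of that line, and the NIH3T3 response was then subtracted from the L929 response. A positive difference means a larger response in L929, and a difference of 1 is 2-fold. This used 4 of the 6 arrays of the study and 19938 genes, each through 1 probe set. The groups were L929 with IFN-β for 4 h, L929 unstimulated, NIH3T3 with IFN-β for 4 h and NIH3T3 unstimulated. The other 2 arrays, of the RAW264.7 macrophage line, entered no difference and served only in choosing the probe set of a gene. The series set out to find genes whose transcription IFN-β regulates, and its design text counts genes at 3-fold, which is the fold used here.

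L929 is an established line of connective tissue fibroblasts and NIH3T3 one of embryonic fibroblasts. They come from different mouse strains, so that line and strain cannot be told apart. The labels give neither the dose of IFN-β, nor the cell density, nor how many cultures went into an array. Each group was 1 array, so no difference here has a replicate check, and no test was possible. The RNA was from bulk cultures, in which fewer responding cells and less RNA per cell cannot be told apart.

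IFN-β is a type I interferon. It binds the receptor chains Ifnar1 and Ifnar2, whose kinases Tyk2 and Jak1 activate transcription factors such as Stat2, which enters the nucleus with Irf9 and acts on interferon-stimulated response elements in promoters. The genes so induced encode antiviral enzymes, GTPases that attack intracellular pathogens, sensors of foreign nucleic acid, antigen-processing proteins and chemokines. In fibroblasts this programme is a first defence against virus before immune cells arrive.

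The promoters of 8 genes with large differences are shown first, because they show where the motifs searched lie when they are present. They were chosen as the named genes with the largest differences among those that held at least 1 of the motifs searched. Each is the stretch of 250 bases upstream of the transcription start, 5′ to 3′, from RefSeq on the build GRCm38.p6, and capitals mark matches to 3 motifs on either strand. The motifs are the core of the interferon-stimulated response element (GAAA, any 2 bases, GAAA), the gamma-activated site bound by Stat dimers (TTC, any 3 bases, GAA), and a kappa-B site (GGGA, any 2 bases, TTCC). The first promoter belongs to the gene with the most negative difference, and the other 7 to genes with large positive ones.
Usp17ld, chr7:103252506-103252755, minus strand: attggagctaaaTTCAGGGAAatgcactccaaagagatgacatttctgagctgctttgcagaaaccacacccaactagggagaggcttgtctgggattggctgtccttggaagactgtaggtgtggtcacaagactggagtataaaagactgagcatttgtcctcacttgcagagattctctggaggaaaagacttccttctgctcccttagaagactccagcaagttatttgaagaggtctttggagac
Slfn5, chr11:82951852-82952101, plus strand: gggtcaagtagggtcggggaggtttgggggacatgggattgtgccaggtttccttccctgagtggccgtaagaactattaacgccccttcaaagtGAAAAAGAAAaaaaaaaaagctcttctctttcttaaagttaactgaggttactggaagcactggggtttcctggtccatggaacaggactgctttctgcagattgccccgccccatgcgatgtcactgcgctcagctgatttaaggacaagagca
Ifi209, chr1:173630609-173630858, plus strand: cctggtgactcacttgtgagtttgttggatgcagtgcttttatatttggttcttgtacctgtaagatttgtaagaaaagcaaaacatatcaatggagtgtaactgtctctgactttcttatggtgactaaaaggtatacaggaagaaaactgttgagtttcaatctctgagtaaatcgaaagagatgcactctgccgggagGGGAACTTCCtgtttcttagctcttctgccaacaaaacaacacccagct
Rsad2, chr12:26456453-26456702, minus strand: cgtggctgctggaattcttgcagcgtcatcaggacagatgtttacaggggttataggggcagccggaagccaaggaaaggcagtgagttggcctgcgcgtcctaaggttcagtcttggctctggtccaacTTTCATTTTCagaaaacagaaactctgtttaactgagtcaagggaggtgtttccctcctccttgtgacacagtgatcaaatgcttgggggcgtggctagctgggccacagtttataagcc
Ifi214, chr1:173535958-173536207, minus strand: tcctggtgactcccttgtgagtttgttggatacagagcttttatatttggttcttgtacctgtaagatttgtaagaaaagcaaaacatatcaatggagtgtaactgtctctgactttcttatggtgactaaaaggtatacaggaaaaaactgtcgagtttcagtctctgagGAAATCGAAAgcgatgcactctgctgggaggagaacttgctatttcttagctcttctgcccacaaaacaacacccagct
Gbp2b, chr3:142594597-142594846, plus strand: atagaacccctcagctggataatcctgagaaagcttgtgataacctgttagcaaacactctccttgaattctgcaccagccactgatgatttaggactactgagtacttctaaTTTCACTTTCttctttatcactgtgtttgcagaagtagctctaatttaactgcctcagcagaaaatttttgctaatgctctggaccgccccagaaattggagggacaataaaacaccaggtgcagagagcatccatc
Trim30d, chr7:104507850-104508099, minus strand: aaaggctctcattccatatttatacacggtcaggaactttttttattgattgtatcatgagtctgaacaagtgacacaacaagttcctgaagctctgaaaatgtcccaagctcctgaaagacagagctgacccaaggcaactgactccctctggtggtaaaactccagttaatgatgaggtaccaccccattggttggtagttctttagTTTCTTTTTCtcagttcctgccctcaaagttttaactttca
Oas1a, chr5:120907526-120907775, minus strand: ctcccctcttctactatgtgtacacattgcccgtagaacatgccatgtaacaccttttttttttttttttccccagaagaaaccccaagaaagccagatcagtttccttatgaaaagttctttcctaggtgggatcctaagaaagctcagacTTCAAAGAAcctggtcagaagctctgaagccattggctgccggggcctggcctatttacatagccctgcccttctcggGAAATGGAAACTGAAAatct

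Counted from the transcription start, the interferon element of the Slfn5 promoter began at -155 and that of Rsad2 at -120. The Oas1a promoter held 2 overlapping interferon elements, at -20 and -14, and a gamma-activated site at -98. Ifi209 held a kappa-B match and no interferon element, and Usp17ld only a gamma-activated site. Other genes with differences as large held none of the 3 motifs in this window: of the 20 genes with the largest positive differences among those named, 16 had a promoter sequence, and 7 of these, Cxcl9, Ifi44l, Tnfsf10, Ifih1, Slfn2, Mpeg1 and Slfn4, had no match. Cmpk2, with a difference of -4.15, had none either. The windows of Ifi209 and Ifi214, which belong to 1 gene family, shared 237 of 251 aligned positions (94.4%), and the probes of such paralogs may share signal. A match describes these letters and does not show that a factor bound there.

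Over all genes with a promoter sequence, the interferon element was present in 531 of 15614 genes (3.40%). It was present in 25 of the 90 genes with a promoter sequence among the 112 whose response was at least 3-fold larger in L929 (27.8%), and in 0 of 36 among the 48 whose response was at least 3-fold smaller (exact 95% binomial interval up to 9.74%, counting error only). Those 112 and 48 genes were 0.562% and 0.241% of the genes measured. Genes at least 3-fold higher in both lines held it most often, in 29 of 61 (47.5%). Among genes that were 3-fold higher in L929 but not in NIH3T3 it was in 16 of 78 (20.5%), and in the opposite class in 2 of 14 (14.3%). The gamma-activated site was in 7.71% of all genes and in 14.4% of the 90. The kappa-B site was in 1.33% of all genes, in 12 of the 90 (13.3%, exact 95% binomial interval 7.08% to 22.1%), in 3 of the 61 induced in both lines (4.92%, interval 1.03% to 13.7%) and in 6 of the 78 higher in L929 alone (7.69%). The intervals of the 90 and the 61 overlap, the sets have 28 measured genes in common, and their difference was not tested. Few sites were counted under more than 1 motif: 11 of 585 interferon elements overlapped a gamma-activated site, 1 overlapped a kappa-B site, and 2 of 1318 gamma-activated sites overlapped a kappa-B site.

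The arrays differed in a way that bears on every comparison between the lines. The median log2 level over all probe sets was 5.05 on the IFN-β array of NIH3T3 and lay between 4.77 and 4.82 on the others. The median response of all genes was -0.05 in L929 and 0.17 in NIH3T3, and the median difference of the responses was -0.23, with central 95% between -1.13 and 0.92. The NIH3T3 shift depended on level: the median response was 0.28 in the fifth of genes with the lowest levels and -0.06 in the fifth with the highest. Housekeeping genes, which lie at high levels, had a median response of -0.17 in L929 and -0.46 in NIH3T3. Values below are on the deposited scale and are to be read against the median difference of -0.23.

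The cell lines were checked against their names. Of 16 fibroblast markers, 13 lay above the median level of 4.86 on both L929 arrays and 15 on both NIH3T3 arrays, with vimentin (Vim), the intermediate filament of mesenchymal cells, at 12.22 with IFN-β and 12.38 without in L929, and 12.25 and 12.55 in NIH3T3. Of 10 smooth muscle and myofibroblast markers, 4 lay above it on both L929 arrays, against 8 with IFN-β and 6 without in NIH3T3. Acta2, the smooth muscle actin of activated fibroblasts, was at 4.38 with IFN-β and 4.47 without in L929, against 10.42 and 10.79 in NIH3T3. Of 7 adipocyte markers, 4 lay above the median level on both L929 arrays, against 3 with IFN-β and 2 without in NIH3T3. Fabp4, a fatty acid carrier, was at 9.81 with IFN-β and 9.75 without in L929, against 4.51 and 3.96 in NIH3T3, whereas Adipoq, the adipocyte hormone adiponectin, was at 2.59 with IFN-β and 2.54 without in L929, against 3.08 and 2.40 in NIH3T3. Lpl and Pparg went with Fabp4, at 9.85 and 8.52 with IFN-β in L929, against 6.51 and 4.35 in NIH3T3. With IFN-β, Plin1, Lep and Cebpa stood lower in L929, as Adipoq did. Cebpa was at 5.09 with IFN-β and 5.41 without in L929, against 5.26 and 5.09 in NIH3T3. The differences between the lines in Acta2 and Fabp4 were of similar size with and without IFN-β. Of 17 macrophage markers, 2 to 4 lay above the median level on any array, and their summed linear level was 624 with IFN-β and 340 without in L929, against 398 and 344 in NIH3T3. The L929 value includes Mpeg1, described below. The part of contaminating cells in the results was not tested.

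At 3-fold, IFN-β raised more genes in L929. There, 178 genes were at least 3-fold higher (0.893% of all genes), against 95 in NIH3T3 (0.476%). At 2-fold this order turned, with 314 genes in L929 and 345 in NIH3T3, whose median response over all genes was 0.17. At least 3-fold lower were 2 genes in L929 (0.01%) and 8 in NIH3T3 (0.0401%). The lists of higher genes shared 79 genes (0.396%), which is 44.4% of the L929 list and 83.2% of the NIH3T3 list. Of the 99 genes higher in L929 alone, 63 were between 1.5-fold and 3-fold higher in NIH3T3 and 36 were below 1.5-fold. Of the 16 higher in NIH3T3 alone, 9 were between 1.5-fold and 3-fold higher in L929.

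The 79 shared genes also responded more in L929. Their median fold was 20.8 in L929 and 10.6 in NIH3T3, and the response was larger in L929 for 68 of them, against 31.8% of all genes. It was at least 3-fold larger for 28 and at least 3-fold smaller for 0. Across these genes the responses of the lines went together, with r = 0.75 and rho = 0.67 over 79 genes. That correlation is across genes on shared arrays and is given as a description.

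**Figure D1:**
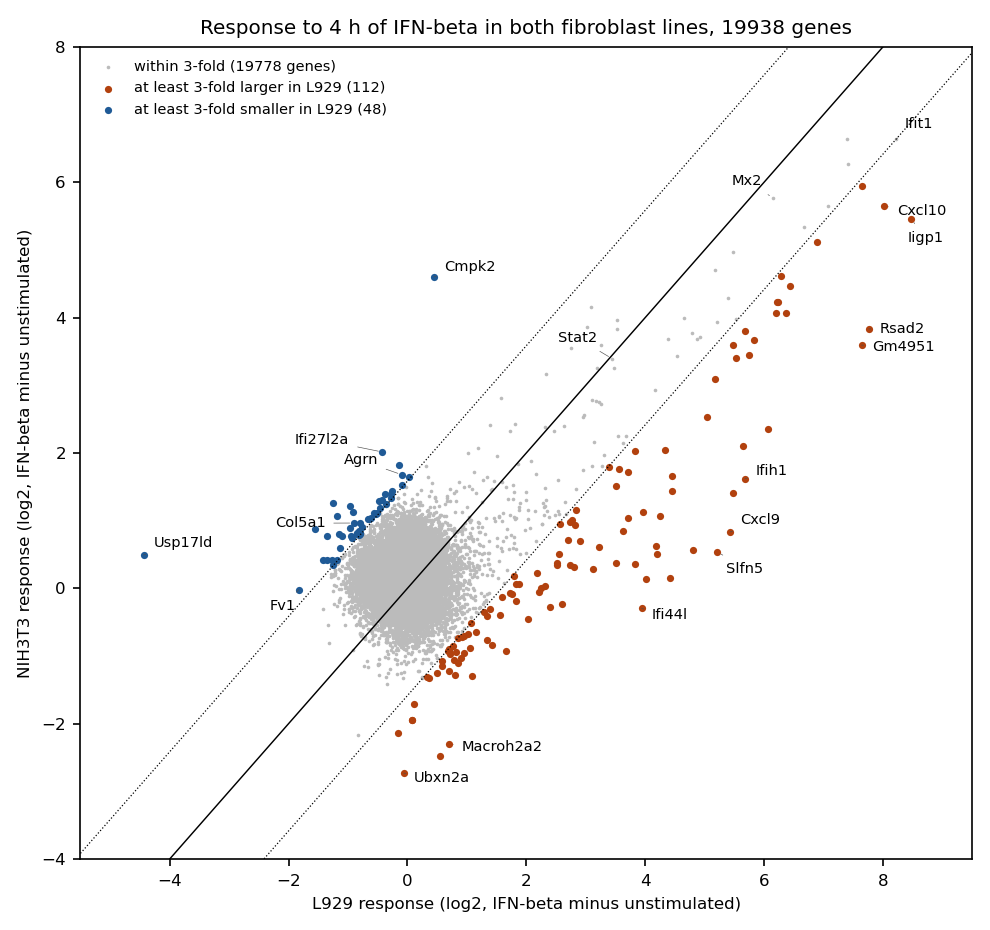
Response to 4 h of IFN-β in L929 (x axis) and NIH3T3 (y axis), as log2 differences, with 1 point a gene for 19938 genes. The solid line marks equal responses and the dotted lines a 3-fold difference. The 112 genes below the lower dotted line run out to L929 responses of 8.48, while among the 48 above the upper line Cmpk2 stands apart at an NIH3T3 response of 4.60.

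Of the 160 genes whose responses differed at least 3-fold, 112 had the larger response in L929 (70%). This share depended on the scaling. With the 4 arrays centred on their medians it was 93.3% of 210 genes, with quantile normalization 88.7% of 168, and with the trend of the response on level removed 91.8% of 196. The 112 genes stayed with few exceptions, 111 or 112 of them under each of these scalings, whereas only 14, 17 and 14 of the 48 did. Each scaling raised the median difference of all genes, from -0.23 to 0.05, -0.05 and 0.01, which favours the 112 over the 48. With median centring every gene rises alike, so the 112 had to stay. At the threshold, Zfp980 lay just inside at 1.59 and Ifit1, an antiviral protein that binds foreign RNA, just outside at 1.58. On the other side Pdxk, at -1.60, lay inside and Kcnj14, at -1.58, outside.

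The 112 genes were of different kinds. In 74 the gene was at least 3-fold higher with IFN-β in L929, and 28 of these were also 3-fold higher in NIH3T3. A further 7 were at least 3-fold lower in NIH3T3. The remaining 31 passed 3-fold in neither line, and their median response was 0.86 in L929 and -0.92 in NIH3T3. A difference of the responses can lie in the level with IFN-β or in the level before it. Unstimulated levels of the 2 lines were within 1 log2 unit for 80 of the 112, and for 74 of them L929 exceeded NIH3T3 by at least 1 with IFN-β. For 18 the lines were within 1 of each other with IFN-β, and L929 had started at least 1 lower. The difference with IFN-β is, by construction, the unstimulated difference plus the difference of the responses. Genes chosen for a large difference and with similar starts must therefore stand higher in L929 with IFN-β. The 74 and the 18 thus follow largely from the choice.

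Slfn5, a member of the Schlafen family of growth and antiviral regulators, had the largest difference (probe set 10379615). Its log2 level was 9.06 with IFN-β and 3.84 without in L929, against 4.00 and 3.46 in NIH3T3. That is 37.1-fold in L929 and 1.46-fold in NIH3T3, a difference of 4.67. Only the IFN-β array of L929 was high, and the other 3 lay below the median level of 4.86.

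Cxcl9, a chemokine that draws T cells through the receptor Cxcr3, followed closely (probe set 10531407). It was at 10.14 with IFN-β and 4.71 without in L929, against 5.70 and 4.87 in NIH3T3, a difference of 4.60. The related ligand Cxcl10 was induced in both lines, at 12.23 with IFN-β and 4.20 without in L929, against 10.78 and 5.14 in NIH3T3. Cxcl10 was thus 261-fold higher in L929 and 50-fold in NIH3T3, whereas Cxcl9 was 43.1-fold and 1.78-fold. No other member of 11 CXC chemokines measured passed 3-fold in the difference. Among 12 CC and CX3C chemokines 0 did, and their extremes were Ccrl2, an atypical chemokine receptor, at 1.47 and Ccl8, an attractant of monocytes, at -1.50.

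**Figure D2:**
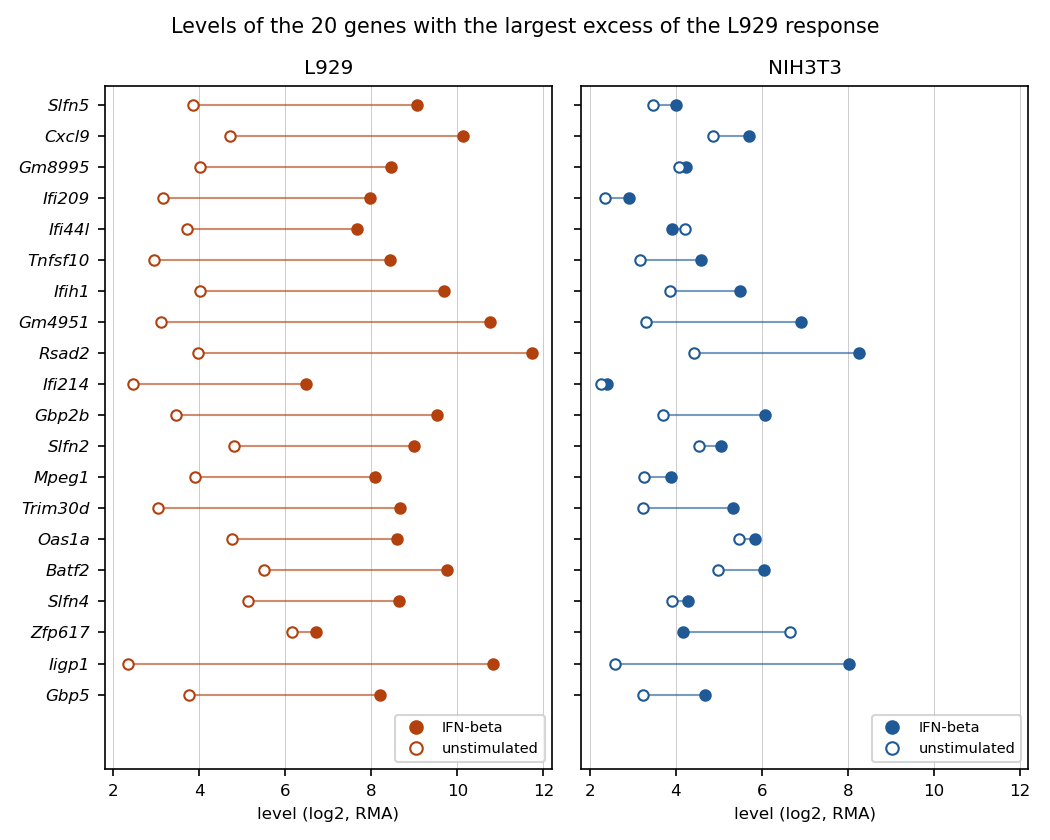
Log2 levels of the 20 genes with the largest excess of the L929 response among those changed at least 3-fold in either line, with filled points for IFN-β and open points for unstimulated cells, L929 on the left and NIH3T3 on the right. Most open points lie at similar levels in both panels, and the filled points lie further right in L929, as for Slfn5 at 9.06 against 4.00.

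The cytosolic RNA sensor Ifih1, which detects long double-stranded RNA, was at 9.69 with IFN-β and 4.01 without in L929, against 5.48 and 3.86 in NIH3T3, a difference of 4.06. Its relative Ddx58, which detects short RNA with a 5′ triphosphate, reached similar levels in both lines, 10.58 in L929 and 10.17 in NIH3T3. Its unstimulated levels were 4.75 in L929 and 6.51 in NIH3T3. The Ddx58 difference of 2.16 thus lay mostly in the starting level, and that of Ifih1 in the level reached. The endosomal RNA receptor Tlr3 was at 9.76 with IFN-β and 4.72 without in L929, against 7.69 and 5.16 in NIH3T3. These were 3 of 19 sensors past 3-fold. The median difference of the 19 was 0.20, and the DNA sensor Cgas had the lowest, -0.82.

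Among antiviral effectors, 7 of 25 had a response at least 3-fold larger in L929 and 1 a smaller one, with a median of 1.01. Rsad2, the radical enzyme viperin that makes a chain-terminating nucleotide, was at 11.73 with IFN-β and 3.96 without in L929, against 8.27 and 4.43 in NIH3T3. It was raised in both lines, 217-fold in L929 and 14.3-fold in NIH3T3. The oligoadenylate synthetases, which make the messenger that activates RNase L, and their relatives split within the family. Oas1a was at 8.58 with IFN-β and 4.76 without in L929, against 5.83 and 5.47 in NIH3T3, and Oas3 at 7.40 with IFN-β and 4.27 without in L929, against 4.45 and 4.16 in NIH3T3. Oasl1, a non-catalytic relative, was at 8.61 with IFN-β and 5.38 without in L929, against 5.97 and 5.36 in NIH3T3. These 3 were at least 8.71-fold higher in L929 and at most 1.52-fold in NIH3T3. Oasl2, by contrast, was 44.4-fold higher in L929 and 31.4-fold in NIH3T3, and the difference for Oas2 was 1.43. Of the Ifit genes, whose proteins bind viral RNA, Ifit3 (difference 1.71) and Ifit2 (1.61) were past 3-fold in the difference, and Ifit1, Ifit2 and Ifit3 were at least 3-fold higher in both lines. Ifitm3, which blocks fusion of viruses, was at 11.62 with IFN-β and 8.85 without in L929, against 11.11 and 10.09 in NIH3T3, so that it reached similar levels from a lower start in L929.

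Both GTPase families that act on vacuoles of intracellular pathogens responded more in L929, under each scaling tried. All 4 immunity-related GTPases measured were past 3-fold, with median responses of 6.94 in L929 and 4.23 in NIH3T3. Iigp1 was at 10.83 with IFN-β and 2.35 without in L929, against 8.04 and 2.58 in NIH3T3, with both unstimulated levels below the lower quartile of 3.43 of all probe sets. Levels that low are near background, so its folds are given against that quartile, as at least 169-fold in L929 and 24.3-fold in NIH3T3. Gm4951 was at 10.76 with IFN-β and 3.12 without in L929, against 6.91 and 3.32 in NIH3T3. Irgm1, a regulator of the other members, differed from them in its levels. It was at 11.16 with IFN-β in L929 and 11.07 in NIH3T3, and at 4.95 unstimulated in L929 and 6.85 in NIH3T3.

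Of 7 guanylate-binding proteins, 6 had a response at least 3-fold larger in L929, and all 7 had positive responses in both lines. Gbp2b was at 9.51 with IFN-β and 3.45 without in L929, against 6.06 and 3.71 in NIH3T3. Gbp5, which promotes inflammasome assembly, was at 8.20 with IFN-β and 3.75 without in L929, against 4.69 and 3.25 in NIH3T3. Gbp3 and Gbp7 were strongly raised in both lines, with NIH3T3 folds of 34.8 and 24.6. Gbp4, Gbp5 and Gbp9 were between 2.23-fold and 3.16-fold in NIH3T3, where Gbp4 and Gbp5 started below the lower quartile and were 2.92-fold and 2.39-fold against it. Gbp8 was the exception, at 5.57 with IFN-β and 4.37 without in L929, against 4.81 and 3.85 in NIH3T3, a difference of 0.24.

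The HIN-200 proteins bind DNA, and some form inflammasomes. Of 6 measured, 3 passed 3-fold, and the difference was positive for all 6 under each scaling tried. Ifi209 was at 7.97 with IFN-β and 3.16 without in L929, against 2.92 and 2.36 in NIH3T3. Ifi203 was at 11.29 with IFN-β and 7.58 without in L929, against 8.40 and 6.68 in NIH3T3. Ifi202b, in contrast, was at 10.91 with IFN-β and 8.44 without in L929, against 10.09 and 7.76 in NIH3T3, a difference of 0.15. Ifi214, of the same family but outside the list, was at 6.48 with IFN-β and 2.47 without in L929, against 2.41 and 2.27 in NIH3T3. In NIH3T3 both arrays lay below the lower quartile of 3.43 for Ifi209 and Ifi214.

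The Schlafen genes differed among themselves. Slfn2 was at 9.00 with IFN-β and 4.81 without in L929, against 5.06 and 4.55 in NIH3T3, and Slfn4 at 8.64 with IFN-β and 5.12 without in L929, against 4.28 and 3.91 in NIH3T3. Slfn8 went the other way. It was at 7.97 with IFN-β and 4.89 without in L929, against 7.96 and 3.80 in NIH3T3, a difference of -1.07. In the order of protein-coding genes on chromosome 11, the differences ran 4.67 for Slfn5, 0.99 for Slfn9, -1.07 for Slfn8, 3.68 for Slfn2, 0.92 for Slfn1, 3.14 for Slfn4 and 0.50 for Slfn3. Slfn3 was at 8.05 with IFN-β and 7.50 without in L929, against 4.76 and 4.71 in NIH3T3, so the lines differed in its level and neither by 3-fold in its response.

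Among ligands and receptors of the TNF family, 2 of 14 passed 3-fold. Tnfsf10, the death ligand TRAIL, was at 8.44 with IFN-β and 2.96 without in L929, against 4.58 and 3.17 in NIH3T3. Cd40, a costimulatory receptor, was at 9.03 with IFN-β and 6.77 without in L929, against 5.12 and 5.11 in NIH3T3. Its NIH3T3 response was 0.01. Of 18 cytokines 3 passed. Il6, an inflammatory cytokine, was at 6.07 with IFN-β and 2.11 without in L929, against 3.76 and 2.63 in NIH3T3. Il18, a substrate of inflammasomes, and Il15, which sustains natural killer cells, reached L929 levels of 5.55 and 8.50 and NIH3T3 levels of 4.72 and 7.78, and both had started lower in L929 by 1.67 and 1.27. The transcript of IFN-β itself, Ifnb1, had responses of -0.23 in L929 and -0.14 in NIH3T3. The inflammatory caspases Casp12 (difference 1.79) and Casp4 (1.61) were the 2 of 14 cell death genes past 3-fold.

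Several transcription factors and regulators differed. Irf5, which acts downstream of Toll-like receptors, was at 6.50 with IFN-β and 4.47 without in L929, against 5.36 and 5.81 in NIH3T3, a difference of 2.48. It was the single member of 7 interferon regulatory factors past 3-fold. Irf1, Irf7 and Irf2 had differences of 1.30, 1.28 and 1.11, and Irf7, the amplifier of interferon genes, was 37.2-fold higher in L929 and 15.4-fold in NIH3T3. Batf2, a leucine zipper factor of activated myeloid cells, was at 9.77 with IFN-β and 5.51 without in L929, against 6.06 and 4.98 in NIH3T3. Sp100, a scaffold of PML nuclear bodies, was at 10.40 with IFN-β and 4.03 without in L929, against 7.54 and 3.47 in NIH3T3. Parp14, an ADP-ribosyltransferase, was 86.3-fold higher in L929 and 22.1-fold in NIH3T3.

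Mpeg1, a pore-forming protein known from macrophages, was at 8.09 with IFN-β and 3.91 without in L929, against 3.90 and 3.27 in NIH3T3. It was 1 of 17 macrophage markers past 3-fold. Of the most abundant others, Cd68 was at 5.62 with IFN-β and 4.93 without in L929, and Coro1a at 5.75 with IFN-β and 5.76 without. Ifi44l, an interferon-induced gene of the Ifi44 pair, was at 7.66 with IFN-β and 3.72 without in L929, against 3.92 and 4.22 in NIH3T3. Gm8995, a predicted gene with no role given here, was at 8.45 with IFN-β and 4.02 without in L929, against 4.24 and 4.08 in NIH3T3. Trim30d, of the tripartite motif family of ubiquitin ligases, was at 8.67 with IFN-β and 3.03 without in L929, against 5.34 and 3.24 in NIH3T3. Its near relative Trim30a was more even, 36.0-fold in L929 and 26.0-fold in NIH3T3.

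**Figure D3:**
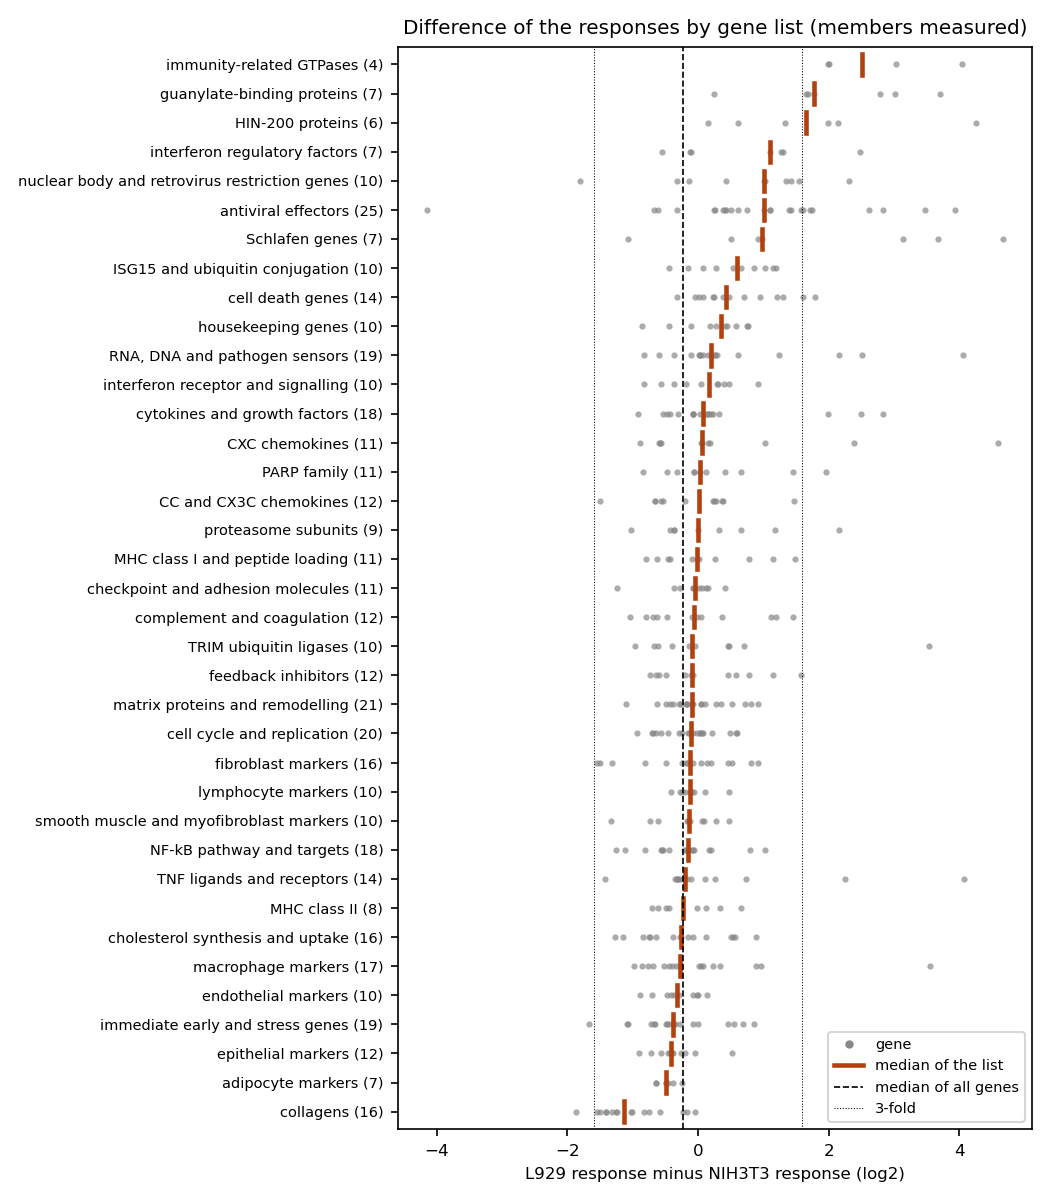
Difference of the responses, L929 minus NIH3T3 on the log2 scale, for the measured members of 37 gene lists, with grey points for genes and red bars for list medians. The dashed line is the median of all genes, -0.23, and the dotted lines are 3-fold. The immunity-related GTPases (median 2.51) and guanylate-binding proteins (1.77) lie furthest right and the collagens (-1.13) furthest left.

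Components of the receptor and its signalling showed no difference of this size. Of 10 measured, 0 passed 3-fold and the median difference was 0.17. The receptor chain Ifnar1 was at 6.84 with IFN-β and 6.95 without in L929, against 6.74 and 7.17 in NIH3T3. Ifnar2 was at 9.12 with IFN-β and 8.80 without in L929, against 7.84 and 7.91 in NIH3T3, so that L929 stood higher on both arrays. The extremes of the list were Jak2, a kinase of other cytokine receptors, at 0.92 and Tyk2 at -0.83.

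Stat2 was the most even of the 37 genes at least 10-fold higher in both lines (0.186% of all genes). It was at 9.60 with IFN-β and 6.15 without in L929, against 9.71 and 6.32 in NIH3T3, a difference of 0.05. Mx2, a dynamin-like antiviral GTPase, was at 9.11 with IFN-β and 2.96 without in L929, against 8.80 and 3.03 in NIH3T3. The tethering factor Bst2 and the ubiquitin ligase Rnf213 differed by -0.32 and -0.44, both raised 11.5-fold in L929, and 14.3-fold and 15.6-fold in NIH3T3. These genes were picked from those at least 10-fold higher in both lines, so their strong NIH3T3 response follows from the choice. Of 12 feedback inhibitors 0 passed 3-fold, and Usp18, which removes Isg15 and blocks the receptor, was 171-fold higher in L929 and 77.2-fold in NIH3T3.

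The antigen presentation genes measured showed no common direction. Of 16 genes listed for MHC class I and peptide loading 11 were measured. Among these 11, 0 passed 3-fold, and their median difference was -0.02. The heavy chain genes among them were H2-T24, H2-Q4 and H2-M3. H2-K1 had no probe set naming it alone and was not measured. The immunoproteasome subunits, which replace constitutive subunits under interferon, went apart. Psmb8 was at 8.25 with IFN-β and 5.74 without in L929, against 5.46 and 5.11 in NIH3T3, a difference of 2.17. Psmb9 was at 7.81 with IFN-β and 6.42 without in L929, against 7.81 and 5.40 in NIH3T3, a difference of -1.02. The transporter gene Tap1, which lies between them on chromosome 17, had a difference of -0.79. Psmb10, the third such subunit, was raised in both lines, with a difference of 0.33.

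A pair of neighbours on chromosome 12 lay at opposite ends of the difference. Rsad2 and Cmpk2, a mitochondrial nucleotide kinase, are adjacent in the order of protein-coding genes. Cmpk2 was at 4.42 with IFN-β and 3.97 without in L929, against 8.09 and 3.48 in NIH3T3 (probe set 10395039). It was 1.37-fold higher in L929 and 24.3-fold in NIH3T3, a difference of -4.15, while that of Rsad2 was 3.93. Both L929 arrays lay below the median level of 4.86 for Cmpk2. The array measures each gene through its own probes, and whether the Cmpk2 probes detect the L929 allele was not tested. These neighbours, the Schlafen order and the Psmb8 locus were chosen after their values were seen.

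**Figure D4:**
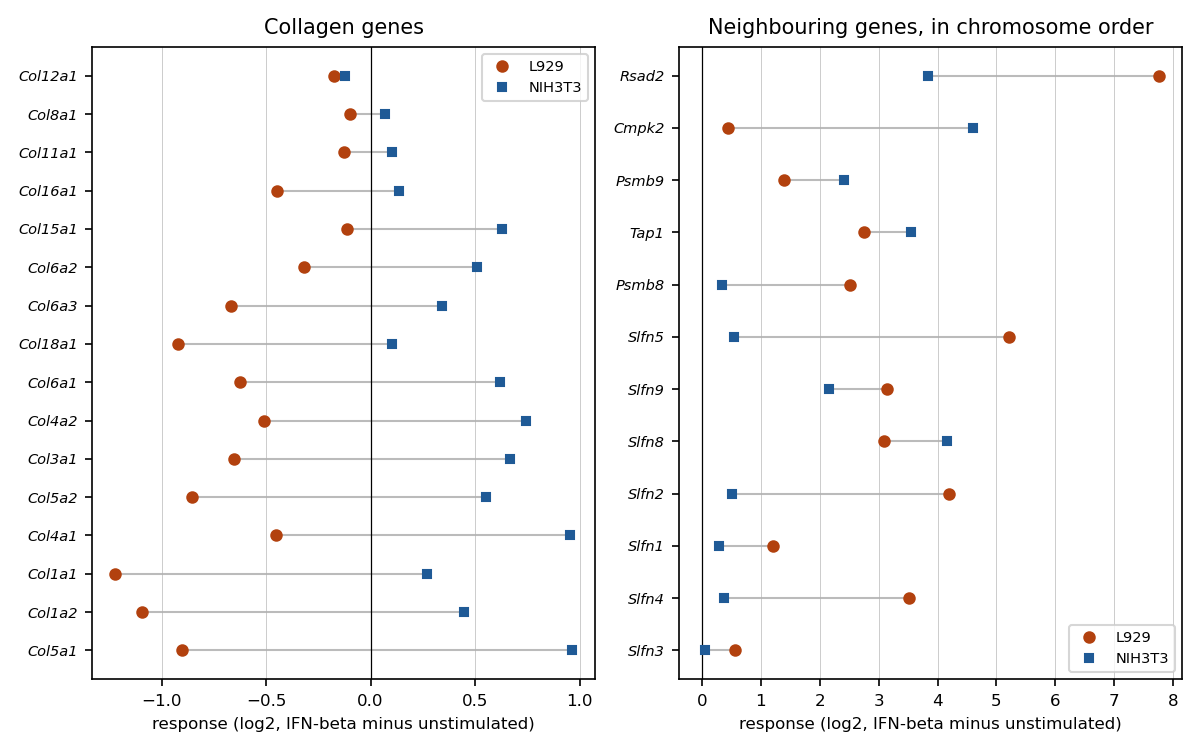
Responses to IFN-β on the log2 scale, with round points for L929 and square points for NIH3T3, for 16 collagen genes (left) and for neighbouring genes at 3 loci in chromosome order (right). All L929 points of the collagens lie left of 0 on the deposited scale (15 of 16 with the trend on level removed), and Rsad2 (7.76 in L929, 3.83 in NIH3T3) and its neighbour Cmpk2 (0.45 in L929, 4.60 in NIH3T3) lie in opposite order.

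Besides Cmpk2, 4 genes were at least 3-fold higher in NIH3T3 and had a response at least 3-fold smaller in L929. Abo and Olfr707 lay below the median level on all arrays, with differences of -1.97 and -1.61. Ifi27l2a, a small interferon-induced membrane protein, was at 3.21 with IFN-β and 3.63 without in L929, against 6.05 and 4.04 in NIH3T3, a difference of -2.43. Agrn, the heparan sulfate proteoglycan agrin, was at 5.09 with IFN-β and 5.18 without in L929, against 7.42 and 5.74 in NIH3T3, a difference of -1.77. Ccl8, short of that bound, was at 3.51 with IFN-β and 3.20 without in L929, against 5.17 and 3.36 in NIH3T3. In NIH3T3 Ifi27l2a, Agrn and Ccl8 were raised, and in L929 the IFN-β array lay within 0.42 of the unstimulated one.

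**Figure D5:**
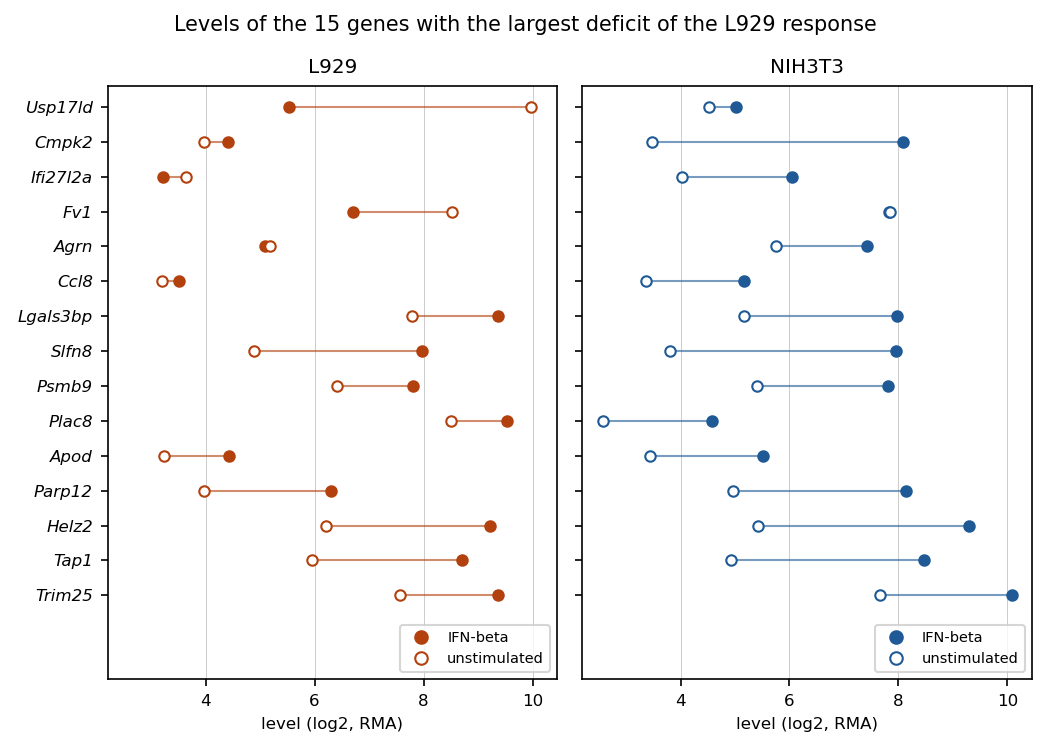
Log2 levels of the 15 genes with the largest deficit of the L929 response among those changed at least 3-fold in either line, drawn as in the plot of the largest excesses, L929 on the left and NIH3T3 on the right. Usp17ld (5.53 with IFN-β, 9.97 without) and Fv1 are the only genes lower with IFN-β in L929 by 3-fold, and Cmpk2 has the longest bar in NIH3T3.

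Usp17ld, a deubiquitinase of the Usp17 family, had the most negative difference, -4.93 (probe set 10566205). It was at 5.53 with IFN-β and 9.97 without in L929, against 5.02 and 4.52 in NIH3T3. The unstimulated array of L929 was the single high one of the 4, and the value rests on it. The family has several near-identical copies, so its probes may read more than 1 gene. Its member Usp17la went the other way, at 7.69 with IFN-β and 5.86 without in L929, against 2.72 and 2.65 in NIH3T3, a difference of 1.76. The other 2 members measured, Usp17lb and Usp17lc, had differences of -0.11 and 0.23. The retrovirus restriction gene Fv1 was at 6.70 with IFN-β and 8.53 without in L929, against 7.83 and 7.85 in NIH3T3, a difference of -1.81. These were the 2 genes at least 3-fold lower in L929.

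Other genes of the 15 with the smallest differences had positive responses in both lines, and in several of them L929 started at a higher level. Lgals3bp, a secreted glycoprotein, was at 9.36 with IFN-β and 7.78 without in L929, against 7.98 and 5.16 in NIH3T3. Helz2, a helicase, was at 9.23 with IFN-β and 6.21 without in L929, against 9.29 and 5.43 in NIH3T3. Plac8 was high in L929 throughout, at 9.53 with IFN-β and 8.51 without in L929, against 4.57 and 2.57 in NIH3T3. Parp12 and Trim25, a ubiquitin ligase that activates Ddx58, reached lower levels in L929, 6.30 and 9.37, than in NIH3T3, 8.13 and 10.08. None of these passed 3-fold in the difference.

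Of the 48 genes with a response at least 3-fold smaller in L929, 41 passed 3-fold in neither line, with median responses of -0.82 in L929 and 0.96 in NIH3T3. In 24 of the 41 the gene was at least 1.5-fold lower in L929 and 1.5-fold higher in NIH3T3 (0.451% of all genes, with the reverse in 0.216%). The way the 41 were chosen favours this pattern, so nothing is read from that count. The 48 included 7 olfactory receptor genes, a family with 1027 of the 19938 genes measured, and 15 genes below the median level on all arrays. For the 112 these counts were 0 and 5. How many of all genes lay below that level on all arrays was not counted, so nothing is read from the 15. Only 7 of the 48 stayed past 3-fold under all 3-fold settings tried: Usp17ld, Cmpk2, Ifi27l2a, Chmp1a, Rap2b, C530005A16Rik and Col5a1. Of the 112, 96 did. Several of these settings raised the median difference of all genes, which favours the 112 over the 48. The mean over probe sets could move only genes with several of them.

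The collagens, the fibrillar and basement membrane proteins that fibroblasts secrete, were the list with the lowest median difference, -1.13. The levels of Col1a1, a chain of type I collagen, were 10.10 with IFN-β and 11.32 without in L929, against 11.87 and 11.60 in NIH3T3. Those of Col1a2, the other chain, were 10.41 with IFN-β and 11.50 without in L929, against 11.80 and 11.36 in NIH3T3. Col5a1, which nucleates fibrils, was at 7.04 with IFN-β and 7.94 without in L929, against 7.88 and 6.91 in NIH3T3, a difference of -1.87, and was the 1 collagen past 3-fold. All 16 collagens had a negative L929 response (15 with the trend on level removed), as did 55.8% of all genes. A positive NIH3T3 response was seen for 15 of 16 (11 to 13 under the other scalings) and for 68.3% of all genes. The exception was Col12a1, at -0.12. Below the median difference of all genes lay 13 of the 16.

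These counts moved with the scaling while the median did not change sign. With median centring 16 of 16 were negative in L929 and 11 positive in NIH3T3, with quantile normalization 16 and 13, and with the trend on level removed 15 and 13. The median difference under these scalings lay between -0.86 and -1.08. Of 21 other matrix genes 0 passed 3-fold, and their median difference was -0.10, so that list had no shift like that of the collagens. The fibroblast marker list holds some of the same collagens and is no separate count.

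The genes lower with IFN-β in NIH3T3 made up another part of the larger differences. All 8 that were at least 3-fold lower there lay within 0.83 of no response in L929. Ubxn2a, a cofactor of the p97 ATPase, was at 9.04 with IFN-β and 9.10 without in L929, against 5.95 and 8.68 in NIH3T3. Atp1b3, a subunit of the sodium pump, was at 10.77 with IFN-β and 10.69 without in L929, against 8.60 and 10.56 in NIH3T3. Zfp617, a zinc finger protein, was at 6.71 with IFN-β and 6.16 without in L929, against 4.17 and 6.65 in NIH3T3. In each the IFN-β array of NIH3T3 was the low one of the 4. Other probe sets gave smaller values: the difference for Ubxn2a was -0.67 by another probe set, against 2.67, and for Atp1b3 0.48, against 2.03. Among all 112 genes with a larger response in L929, 10 had other probe sets. The median of these others was past 3-fold for 3 of the 10 and on the same side of the median of all genes for 8. Of the 48 with a smaller response, 1 had another probe set, and it was not past 3-fold. The histone variant gene Macroh2a2 stood apart, at 4.29 with IFN-β and 3.58 without in L929, against 5.19 and 7.50 in NIH3T3.

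Gene lists outside the interferon response differed in their medians. Besides the collagens, at -1.13, the housekeeping genes stood away from all genes, at 0.35 against -0.23, though with quantile normalization and with the trend on level removed they lay at -0.00226 and 0.05, close to all genes at -0.05 and 0.01. The median difference was -0.11 for 20 genes of the cell cycle and replication, -0.27 for 16 of cholesterol synthesis and uptake, -0.16 for 18 of the NF-kB pathway and -0.38 for 19 immediate early and stress genes. Past 3-fold among these was only Klf2, a Krüppel-like factor, at -1.66. In all, 41 of the 112 genes were in at least 1 of the 37 lists, which hold 440 genes. That is 9.32% of the listed genes, against 0.562% of all, and many of the lists were chosen for the interferon response. Among probe sets that name several genes, 37 of 1621 had a response at least 3-fold larger in L929 and 4 a smaller one. Among the 12147 that name no gene, 518 had a larger and 646 a smaller one. Both were commoner there than among the genes measured (0.562% and 0.241%), and the smaller responses were the more frequent.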

How the data were processed

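Total RNA of unstimulated and IFN-β-treated cells was extracted with a spin-column kit and labelled for Affymetrix whole-transcript arrays, as the labels' protocols record. The deposited values are log2 levels that the authors made with RMA, per the submitters' processing notes. No RMA version is given in the labels. The range of the values gave the log base. Of 35557 probe sets the array annotation names 1 gene for 21789, several for 1621 and none for 12147. Symbols were looked up by Entrez ID in RefSeq (91 probe sets without a match, 0 symbols changed). For the 999 genes with several single-gene probe sets the probe set whose mean over the 6 arrays was highest stood for the gene, which left 19938 genes, with no filter on low levels. Depth does not apply to arrays, whose number limits the precision.

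Responses, their difference, 3-fold counts and list medians were computed in Python 3.11.15 with numpy 2.4.6, pandas 2.3.3, scipy 1.17.1, statsmodels 0.14.6 and matplotlib 3.10.9, and tested on simulated data. With 1 array per group there is no p-value. Levels of the lines count as different from 1 log2 unit on.

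The genes, the 37 lists and the settings were chosen with earlier results of these data known, and support nothing independently. Named genes were, among those at least 3-fold changed in either line and above the median level on an array, the 20 largest and 15 smallest differences; the 5 most even of the genes at least 10-fold higher in both lines; the genes at least 3-fold lower in either line; each list's extremes and members past 3-fold; and the 4 most abundant members of marker lists. Genes named beyond this rule, among them Ifit1, Oas2, Oasl2, Irf1, Irf2, Irf7, Ifnar1, Ifnar2, Ifnb1, Usp18, Psmb10, Abo, Olfr707, the neighbours at 3 loci, those given only as stable under all settings, and the genes at the threshold, Adipoq, Plin1, Lep and the other Usp17 genes, were chosen after their values were seen. Promoters were searched on both strands for the 3 motifs in the 250 bases upstream of each RefSeq start, and a gene counted if any of its starts held the motif. Those shown are the 8 named genes with a motif and the largest differences. No probe set coordinates are given, because no source used here names the build of the array annotation. Alternatives were 2-fold and 5-fold thresholds, median centring, quantile normalization, removal of the trend on level (lowess, span 0.3), the mean over probe sets, levels floored at the lower quartile, a filter at the median level and all probe sets.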

Additional observations from a re-analysis of the deposited data

Results flagged for a closer look

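On the deposited scale, 5 named genes changed at least 1.5-fold in opposite directions in the 2 lines. The difference between the lines was not tested for any of them, as each group was 1 array. Macroh2a2, a histone variant of silent chromatin, had a response of 0.71 in L929 and -2.30 in NIH3T3, a difference of 3.01. Its highest level, 7.50, was on the unstimulated NIH3T3 array. Col5a1 had responses of -0.90 in L929 and 0.97 in NIH3T3, a difference of -1.87. Klf2, a factor of quiescence, had -0.81 in L929 and 0.85 in NIH3T3, a difference of -1.66. Tnfrsf12a, the receptor of the ligand TWEAK, had -0.74 in L929 and 0.69 in NIH3T3, a difference of -1.43. Mvd, an enzyme of the mevalonate pathway, had -0.66 in L929 and 0.62 in NIH3T3, a difference of -1.28. Over all genes, 43 (0.216%) were 1.5-fold higher in L929 and 1.5-fold lower in NIH3T3, and 90 (0.451%) the reverse. Both the genes and these counts depend on the scaling. The median NIH3T3 response of all genes was 0.17 on the deposited scale and -0.10 with median centring. With that centring the NIH3T3 responses of Klf2, Tnfrsf12a and Mvd fell short of 1.5-fold.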

How the results depend on the processing

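Each list median moved by less than the spread of all genes (0.48). Even so, 8 of the 37 changed sides of the median of all genes under at least 1 of 5 scalings and probe set choices. There were 5 each with quantile normalization, with the trend on level removed and with floored levels, and 0 with the mean over probe sets. Median centring moves every gene alike, so 0 lists could change sides under it. The proteasome list, at -0.01 against -0.23 for all genes, was at -0.14 against -0.05 with quantile normalization and at -0.13 against 0.01 with the trend removed. The lists of cell cycle, matrix and NF-kB genes and fibroblast markers changed sides under both of these, and those of MHC class II, TNF family, NF-kB, fibroblast and smooth muscle genes with floored levels. Named genes moved by more than that spread in 11 of 137 with the trend on level removed, 6 with floored levels, 3 with the mean over probe sets and 0 with quantile normalization. With median centring 0 could do so, as its shift, the same for every gene, is smaller than that spread. Macrod2 was at 1.34 and turned to -0.11 with the mean over its probe sets. Genes with a larger and a smaller response in L929 numbered 387 and 938 at 2-fold, 37 and 5 at 5-fold, 196 and 14 with median centring, 180 and 16 with the trend removed, and 686 and 704 over all probe sets, and with quantile normalization the smaller ones numbered 19. Genes higher with IFN-β in L929 and in NIH3T3 numbered 314 and 345 at 2-fold, 115 and 62 at 5-fold, and 564 and 394 over all probe sets, with 144 in both lines at 2-fold and 140 over all probe sets. Larger responses with a higher IFN-β level in L929 numbered 178, 35, 144, 139 and 491 at 2-fold, at 5-fold, with centring, with the trend removed and over all probe sets. Those with a lower unstimulated level numbered 94 at 2-fold, 5 at 5-fold, 45 with centring and 250 over all probe sets. No paired analysis was possible because each group has 1 array, and for the same reason no replicate could be left out. Values near background have little meaning as folds: 24 of the 112 genes had an unstimulated L929 level below the lower quartile.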

Other observations

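Some members of the lists, not described above, had differences short of 3-fold. C2, a complement protease, was at 6.41 with IFN-β and 5.03 without in L929, against 3.78 and 3.85 in NIH3T3, a difference of 1.45, and C1ra, another complement protease, had -1.04. H2-T24, a nonclassical MHC class I gene, was 12.4-fold higher in L929 and 4.44-fold in NIH3T3. Cd274, the checkpoint ligand PD-L1, was at 7.73 and 4.78 in L929 against 7.04 and 4.50 in NIH3T3, a difference of 0.42. Nmi, a partner of Stat proteins, had a difference of 1.57, just under 3-fold. Dtx3l, a ubiquitin ligase and partner of Parp9, was 29.4-fold higher in L929 and 12.9-fold in NIH3T3. Hmox1, the stress-induced haem oxygenase, had responses of 1.38 in L929 and 0.52 in NIH3T3.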
